A study of Mus musculus with 8 samples.

Results

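The HoxB cluster holds 10 protein-coding homeobox genes of the mouse, Hoxb1 to Hoxb9 and Hoxb13, which lie in a row on chromosome 11 and are transcribed in the same direction. Their probes were found on the arrays through the RefSeq accession that the scanner files give for each probe. All 10 genes had a probe, 11 probes in all among the 55681 probes of the array, and Hoxb3 was the gene with 2. The 10 genes belong to 36799 genes and other targets on the array. RNA came from the back skin epidermis of newborn (P0) C57BL/6 mice, 4 EED cKO and 4 control, each hybridized to 1 array of the same slide. Universal Mouse Reference RNA, a mix sold for this purpose, was the other channel of every array. In EED cKO mice the Cre recombinase is driven by the K14 promoter (K14-Cre; EED flox/flox). Eed is thus deleted in cells that descend from K14-positive epidermal stem cells. These are keratinocytes and, by the lineage tracing that the study's text cites, Merkel cells. It is not deleted in cells of other origin that a peeled epidermis holds. The labels name the controls only as control. The study's text speaks of siblings without Cre for a PCR assay of such mice, and for the arrays the alleles of the controls are not given in the sources used here. The sample carried Cy3 on replicates 1 and 3 of both genotypes and Cy5 on replicates 2 and 4, with the reference in the other dye.

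Hox genes encode transcription factors that give cells their position along the body axis. Genes at the Hoxb1 end of the cluster are used first and furthest forward in the embryo, and those toward Hoxb13 later and further back, and skin cells keep much of the Hox code of the body region they come from. EED is a core subunit of Polycomb repressive complex 2 (PRC2), which places a repressive methyl mark on histones over stretches rich in CpG, and the Hox clusters are among its classic targets. The comparison of EED cKO with control thus asks which HoxB transcripts differ when the epidermis lacks the complex.

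The promoters of Hoxb4, Hoxb8 and Hoxb1 are shown because they were the ones at hand and stand for 3 kinds of result among the members, a transcript that was lower in EED cKO, one that did not pass the test and one that was never above background. The sequences come from RefSeq (build GRCm38.p6), which was held for these 3 of the 10 members. Each run reads 5′ to 3′ on the + strand, from 250 bases before the annotated start to 50 after it, with every CpG in capitals. They lie at chr11:96318017-96318316 for Hoxb4, chr11:96281655-96281954 for Hoxb8 and chr11:96365508-96365807 for Hoxb1.
Hoxb4: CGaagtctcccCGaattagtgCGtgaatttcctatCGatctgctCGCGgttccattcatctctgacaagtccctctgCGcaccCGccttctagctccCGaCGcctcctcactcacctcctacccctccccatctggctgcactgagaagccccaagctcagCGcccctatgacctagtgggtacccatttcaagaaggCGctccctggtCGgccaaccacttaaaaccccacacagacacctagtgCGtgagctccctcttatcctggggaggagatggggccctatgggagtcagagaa
Hoxb8: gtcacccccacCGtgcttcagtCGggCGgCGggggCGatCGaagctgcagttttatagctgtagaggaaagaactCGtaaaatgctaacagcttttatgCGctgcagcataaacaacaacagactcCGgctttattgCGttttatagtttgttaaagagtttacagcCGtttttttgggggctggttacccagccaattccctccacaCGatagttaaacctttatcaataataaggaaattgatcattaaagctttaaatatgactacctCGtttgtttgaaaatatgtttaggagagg
Hoxb1: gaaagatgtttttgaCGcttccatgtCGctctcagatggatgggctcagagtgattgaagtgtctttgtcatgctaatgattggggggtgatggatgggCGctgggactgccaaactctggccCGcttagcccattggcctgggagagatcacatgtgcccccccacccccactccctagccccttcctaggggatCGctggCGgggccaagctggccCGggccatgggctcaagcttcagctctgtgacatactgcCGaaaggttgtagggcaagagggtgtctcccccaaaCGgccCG

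The Hoxb4 window held 14 CpG, the Hoxb8 window 13 and the Hoxb1 window 10, where the median of 32851 mouse promoter windows of the same length was 7. Of all windows, 36.3% held at least as many CpG as that of Hoxb4, 37.9% as that of Hoxb8 and 43.5% as that of Hoxb1. GC content was 58.0% at Hoxb4 and 59.3% at Hoxb1 but 42.3% at Hoxb8, beside a median of 52.7%. A pair of AGGTCA copies spaced by 5 bases, the form bound by retinoic acid receptors, was in none of the 3 windows on either strand, and in 0.00913% of all windows. The letters GAGAG, read on both strands, were found at 2 positions in the Hoxb1 window, at 1 in the Hoxb8 window and at 0 in the Hoxb4 window, and 62.0% of all windows held them.

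The measure is the log2 ratio of sample over reference after background correction and loess normalization. A ratio of 1 means 2-fold more signal from the epidermis than from the reference mix, and ratios are compared between genotypes for the same probe and not between genes. The deletion was visible in the targeted gene. The log2 ratio of Eed was -1.80 ± 0.17 (SD, n = 4) in the EED cKO group. In the control group it was -0.35 ± 0.13 (SD, n = 4), a difference of -1.46 (SE 0.09, limma adjusted p = 2.14e-05). The sample channel was well above background at 51.5% to 65.5% of spots, and the log2 ratios of any pair of arrays correlated at 0.89 or more over all probes.

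In EED cKO epidermis the HoxB cluster did not move as a block. Transcripts from the Hoxb2 end (Hoxb2, Hoxb3, Hoxb4 and Hoxb5) fell, those from the far end (Hoxb9 and Hoxb13) rose, and Hoxb6, Hoxb7 and Hoxb8 between them did not pass the test. Of the 2 probes for Hoxb3, only the brighter passed. Of the 10 members, 9 passed the filter on dim probes, which asks that 3 or more of the 4 arrays of either genotype be well above background, and Hoxb1 did not. Hoxb13 passed it only through the EED cKO arrays. Of the 9, 2 rose and 4 fell at an adjusted p below 0.05 (limma, adjusted over all 23139 genes and other targets tested), beside 11.8% of all tested that rose and 9.95% that fell. At 2-fold or more, Hoxb13 and Hoxb9 rose and Hoxb2 fell, beside 1.1% and 0.0994% of all tested. The median log2 change of the 9 was -0.39, and that of all tested was 0.019. The split over all tested depends on centring, since median centring in place of loess gave 1014 higher and 1540 lower where the reported fit gave 2727 and 2303. The member counts were 2 and 4 under both. In bulk RNA, a change in the number of cells that carry a transcript and a change in RNA per cell cannot be told apart.

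**Figure D1:**
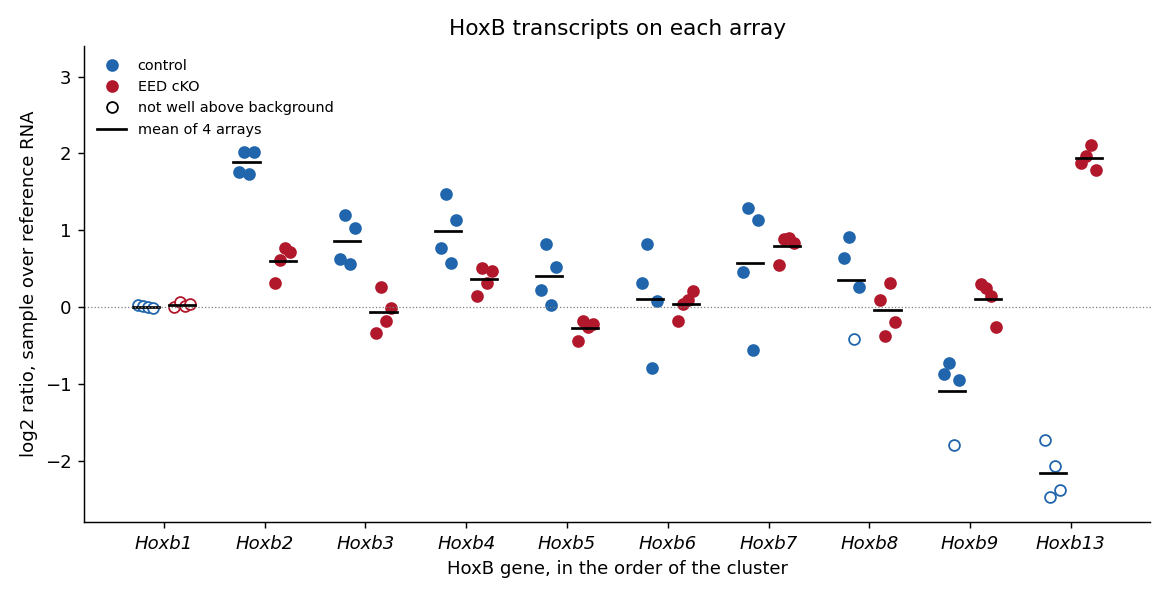
Log2 ratio of sample over reference RNA (vertical axis) of each HoxB gene (horizontal axis, in the order of the cluster) on each of the 4 control and 4 EED cKO arrays. Points are arrays, open points were not well above background in the sample channel, and black lines are means of 4 arrays. Control points lie above EED cKO points from Hoxb2 to Hoxb5, the genotypes overlap from Hoxb6 to Hoxb8, and EED cKO points lie above at Hoxb9 and Hoxb13.

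Hoxb1, the gene at the front end of the cluster and known for its part in the hindbrain, gave no measurable signal. Its probe is printed 10 times on the array, and the median spot signal averaged over these was 23.9 to 44.3 intensity units in EED cKO and 23.8 to 44.1 in control, against a local background of 21.1 to 25.9. It was well above background on 0 of the 8 arrays in the sample channel and on 0 of 8 in the reference channel, so neither a level nor a change can be given.

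Hoxb2, known for its role in the hindbrain beside Hoxb1, fell the most. Its log2 ratio was 0.31, 0.61, 0.77 and 0.71 on EED cKO replicates 1 to 4 and 1.76, 2.02, 1.73 and 2.02 on control replicates 1 to 4. The highest EED cKO array was thus well below the lowest control array. Hoxb2 averaged 0.60 ± 0.21 (SD, n = 4) in the EED cKO group and, in the control group, 1.89 ± 0.16 (SD, n = 4). This is a log2 change of -1.29 (SE 0.10, 95% interval -1.51 to -1.06, limma adjusted p = 9.32e-05), or 2.44-fold lower. The raw sample signal was 121 to 240 intensity units in EED cKO and 343 to 856 in control, over a background of 20 to 26, so both genotypes were measured on every array.

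Hoxb3, a hindbrain and pharyngeal arch gene, came next. Its log2 ratio was -0.33, 0.26, -0.18 and -0.0049 in EED cKO and 0.62, 1.20, 0.57 and 1.03 in control. No EED cKO array reached the lowest control array. The change was -0.92 (SE 0.09, limma adjusted p = 0.000257). Hoxb3 has a second, slightly dimmer probe (mean log2 signal 6.96 against 7.15). It gave -0.15 (SE 0.12, limma adjusted p = 0.428 with every probe tested on its own). The second probe thus did not pass the test, and the fall of Hoxb3 rests on 1 of its 2 probes. With both averaged the change was -0.53.

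Hoxb4, a gene much used to expand blood stem cells, had log2 ratios of 0.15, 0.51, 0.32 and 0.47 in EED cKO and 0.77, 1.47, 0.58 and 1.13 in control. The highest EED cKO value, in replicate 2, lay just below the lowest control value, in replicate 3. The change was -0.63 (SE 0.11, limma adjusted p = 0.00460), or 1.54-fold lower. Without the dye term in the fit the adjusted p was 0.0526.

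Hoxb5, which acts in enteric neural crest and blood stem cells, had log2 ratios of -0.44, -0.19, -0.25 and -0.22 in EED cKO and 0.22, 0.82, 0.030 and 0.53 in control. The 4 EED cKO arrays were close together (SD 0.11) and all lay below the controls, which spread over more (SD 0.35). The change was -0.67 (SE 0.11, limma adjusted p = 0.00347), or 1.60-fold lower. The size depended on how dim spots were treated for Hoxb5 and Hoxb3 too. Under the software's own log ratio, and likewise under the deposited table, it was -1.22 for Hoxb5 and -1.50 for Hoxb3, both past 2-fold.

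The middle of the cluster behaved differently from both ends in that the control arrays themselves spread widely. Hoxb6, a gene of the lateral plate and limb mesoderm, had log2 ratios of -0.18, 0.047, 0.090 and 0.21 in EED cKO and 0.32, 0.83, -0.79 and 0.079 in control. Both the highest and the lowest array of Hoxb6 were controls. The change was -0.067 with a 95% interval of -0.61 to 0.48 (limma adjusted p = 0.875), an interval that leaves room for changes of up to about the size seen at Hoxb4 in the lower direction.

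Hoxb7, whose promoter is widely used to mark the ureteric bud, had log2 ratios of 0.54, 0.88, 0.90 and 0.84 in EED cKO and 0.46, 1.29, -0.56 and 1.13 in control. Here too the controls lay on both sides of the EED cKO arrays. The change was 0.21 with a 95% interval of -0.37 to 0.80 (limma adjusted p = 0.609). Without control replicate 3 it was -0.11 (limma adjusted p = 0.645), so the sign of the Hoxb7 difference rests on 1 array.

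Hoxb8, a gene of myeloid progenitors and of a subset of microglia, had log2 ratios of 0.094, -0.37, 0.31 and -0.19 in EED cKO and 0.64, 0.92, -0.41 and 0.26 in control. Control replicate 3, the lowest of all 8, was the 1 array on which Hoxb8 was not well above background. The change was -0.39 with a 95% interval of -0.98 to 0.20 (limma adjusted p = 0.324). Without control replicate 3 it was -0.70 (limma adjusted p = 0.0193), which would make Hoxb8 the fifth member to fall.

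Hoxb9, used in the thoracic skeleton and the mammary gland, was the first member along the cluster to pass the test as higher in EED cKO. Its log2 ratio was 0.30, 0.25, 0.15 and -0.25 in EED cKO and -0.88, -0.73, -1.79 and -0.95 in control. The lowest EED cKO array lay above the highest control array. The change was 1.20 (SE 0.22, 95% interval 0.71 to 1.68, limma adjusted p = 0.00556), or 2.29-fold higher. The raw sample signal was 119 to 259 intensity units in EED cKO and 42.5 to 137 in control, and control replicate 3, at 42.5, was not well above background. Without that array the change was 0.94 (limma adjusted p = 0.00240).

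The size of the Hoxb9 rise depended on how dim spots were treated. With the log ratio of the Feature Extraction software in place of the ratio used here, it was 2.49 (limma adjusted p = 0.0990), and the SD of the control arrays was then 2.18.

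Hoxb13, the last gene of the cluster and known from the tail end of the body axis and the prostate, showed the largest change of the 9 tested members. Its log2 ratio was 1.88, 1.97, 2.11 and 1.79 in EED cKO and -1.73, -2.48, -2.07 and -2.38 in control. The genotypes were separated by far more than the spread within either. The raw sample signal was 688, 1025, 681 and 637 intensity units on the EED cKO arrays and 39.0, 25.0, 42.0 and 22.5 on the control arrays, where the local background of the same spots was 25.5, 23.0, 25.0 and 22.0. Hoxb13 was thus well above background on every EED cKO array, 4 of 4, and on 0 of 4 controls, while the reference channel detected it on all 8. A probe that is not well above background on any array of a genotype gives only a bound, and by this bound the Hoxb13 level in EED cKO was at least 15.9-fold higher than in control. The fit gave an adjusted p of 2.32e-07 (limma) and a log2 difference of 4.10, which is set by the background level of the controls and is no measure of the size of the change. Under other processing that difference ranged from 3.82 to 8.71, the upper end coming from the deposited log2 table.

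**Figure D2:**
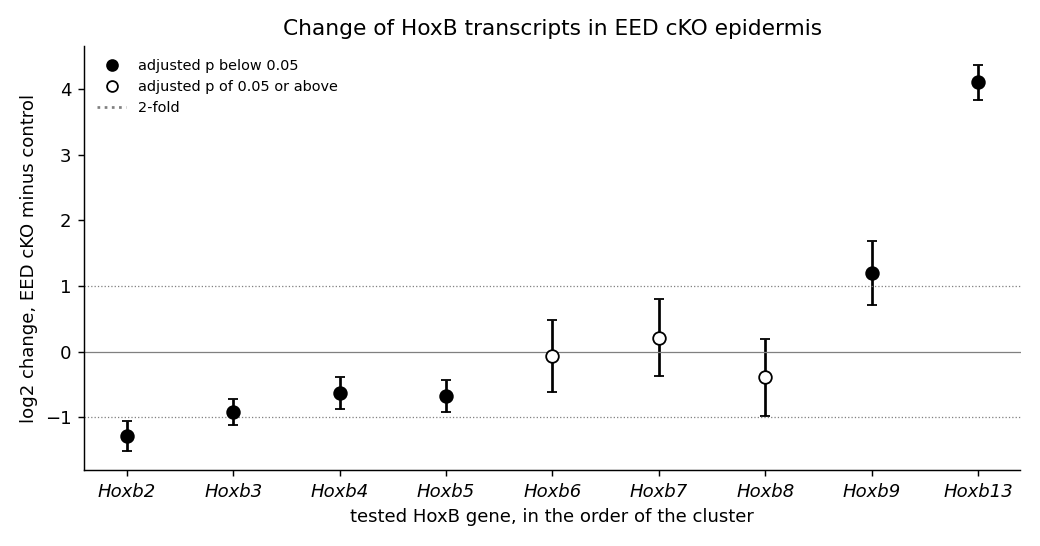
Log2 change of the 9 tested HoxB genes, EED cKO minus control (vertical axis), in the order of the cluster (horizontal axis). Points are limma estimates from 4 arrays per genotype, bars are 95% intervals, filled points passed an adjusted p of 0.05 and dotted lines mark 2-fold. The lowest estimate is -1.29 at Hoxb2, the point of Hoxb13 at 4.10 rests on controls at background and stands for a bound only, and the intervals of Hoxb6, Hoxb7 and Hoxb8 include 0.

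Ordered by size, the changes ran from Hoxb2 through Hoxb3, Hoxb5, Hoxb4, Hoxb8, Hoxb6, Hoxb7 and Hoxb9 to Hoxb13. The 95% intervals of neighbours in this order overlapped from Hoxb2 up to Hoxb7, with Hoxb2 reaching up to -1.06 and Hoxb3 down to -1.11, and also between Hoxb7, which reached up to 0.80, and Hoxb9, which reached down to 0.71. Hoxb13 comes last by its bound of 15.9-fold, and no interval can be set for it. The rank of a gene in the cluster and the rank of its change had a Spearman correlation of 0.93 over the 9 members. This is a description only, since the 9 values come from the same 8 arrays.

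The arrays of the 2 genotypes did not overlap for 6 of the 9 tested members, the same 6 that passed the test, beside 17.2% of all tested. Hoxb13, counted among these 6, entered the test only through the EED cKO arrays, so the filter favoured a separation there. For each of the 6 the exact permutation test over the 8 arrays (two-sided) gave p = 0.0286, which is the smallest that 4 against 4 arrays allow. Without overlap this value is fixed, so it adds nothing to the separation itself. For Hoxb6, Hoxb7 and Hoxb8 the same test gave 0.800, 0.771 and 0.314.

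Arrays that do not overlap must differ in the same direction within each dye, so the values by dye show only the sizes for these 6. With the sample in Cy3 (2 arrays of each genotype) the difference was -1.21 for Hoxb2, -0.85 for Hoxb3, -0.44 for Hoxb4, -0.47 for Hoxb5 and 1.56 for Hoxb9. With the sample in Cy5 it was -1.36, -0.99, -0.81, -0.88 and 0.84 for the same genes. Hoxb6, Hoxb7 and Hoxb8 changed sign between dyes. Hoxb7 differed by 0.78 in Cy3 and -0.35 in Cy5, Hoxb6 by 0.19 and -0.32, and Hoxb8 by 0.087 and -0.87.

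The spread of the controls had a common shape across the cluster. Control replicate 3 was the lowest control array for 8 of the 9 tested members and control replicate 2 the highest for 8 of them, Hoxb13 being the exception in both cases. Over all tested, control replicate 3 was the lowest control array for 22.2% and control replicate 2 the highest for 26.3%. The SD was larger among controls than among EED cKO arrays for 8 of the 9 members, beside 60.1% of all tested, and its median over the members was 0.40 in control and 0.17 in EED cKO. These ratios and SDs are not adjusted for dye, and control replicate 3 carried the sample in Cy3 and control replicate 2 in Cy5. The fitted dye term, Cy5 over Cy3, ran from -0.32 (Hoxb13) to 0.70 (Hoxb7) over the 9 members. The part of the dye in this shape was not tested. The deviation of control replicate 3 was small at Hoxb2 and wide at Hoxb7. The same array stood apart at Hoxa7, in another cluster, where its log2 ratio was -1.22 and the other controls had 1.78, 2.56 and 2.39. Hoxa7 was picked out here after its values were seen.

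**Figure D3:**
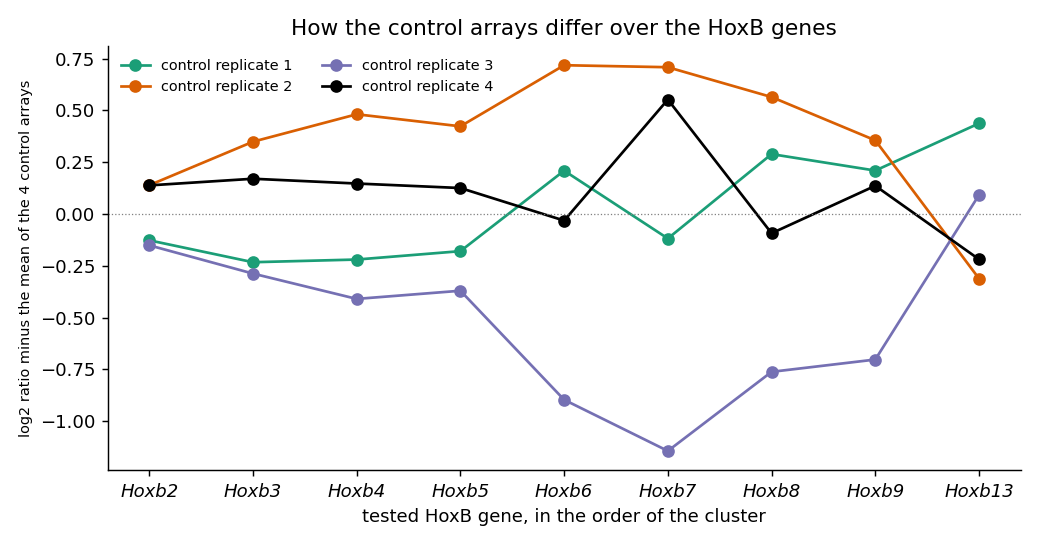
Log2 ratio of each control array minus the mean of the 4 control arrays (vertical axis) for the 9 tested HoxB genes in the order of the cluster (horizontal axis). Each line is 1 control replicate, joined across genes only to follow the array. Values are not adjusted for dye, and replicates 1 and 3 carried the sample in Cy3 and replicates 2 and 4 in Cy5. Control replicate 3 lies lowest and control replicate 2 highest for 8 of the 9 genes, and Hoxb13 is the exception.

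Control replicates 2 and 3 were also the 2 arrays set apart by Y-linked genes. Of 4 such genes, Ddx3y, Eif2s3y and Uty were well above background on 2 control arrays and on 0 EED cKO arrays, and Kdm5d on 1 EED cKO array and 0 controls. The mean log2 ratio of these 2 arrays over the 4 genes was 1.19 and 1.02, and it lay between -1.51 and -1.31 on the other 6 arrays, all 4 EED cKO arrays among them. These 2 arrays were at opposite ends of the control range for the HoxB genes, and they also differed in the dye of the sample. With the Y-linked level as a covariate, 2 members rose and 4 fell. Without control replicates 2 and 3, an alternative chosen after seeing the data, 2 rose and 5 fell, with Hoxb8 at -0.49 (limma adjusted p = 0.0225) as the fifth.

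All EED cKO arrays shared 1 row of the slide, and all controls shared the second row, so row and genotype cannot be told apart. The reference RNA, the same on every array, shows how far the rows differ in its own channel after normalization. It cannot show differences in how the samples themselves were handled. In the reference channel the members differed between rows by -0.097 (Hoxb13) to 0.028 (Hoxb3) on the log2 scale, none of the 9 passed an adjusted p of 0.05 (limma) and the lowest unadjusted p was 0.138 (Hoxb7). Over all tested, 120 (0.519%) passed in this channel, so a count of 0 among 9 is not particular to the members.

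Within the cluster, 1 further transcript could be measured. Gm53, a long noncoding RNA annotated between Hoxb9 and Hoxb13, had log2 ratios of 1.81, 2.01, 1.64 and 1.80 in EED cKO and -0.045, 1.05, -0.40 and 0.81 in control. All EED cKO arrays lay above all controls. It rose by 1.46 (SE 0.19, limma adjusted p = 0.00128), and as at Hoxb6 to Hoxb9 its lowest control was replicate 3 and its highest replicate 2. The other 6 transcripts listed inside the cluster, the miRNA genes among them, had no probe matched by accession.

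The genes that flank the cluster on either side were also counted. Of 11 listed, 10 were tested, 0 rose and 1 fell, with a median log2 change of 0.018. Over all tested, 11.8% rose and 9.95% fell, and counts this small do not set the flanks apart from that. The 1 that fell was Ube2z, a ubiquitin-conjugating enzyme, at -0.35 (SE 0.10, limma adjusted p = 0.0297). The immediate neighbours are Ttll6, a tubulin-modifying enzyme beyond Hoxb13, with a change of 0.25 (limma adjusted p = 0.0824), and Skap1, a T cell adaptor beyond Hoxb1, with -0.011 (limma adjusted p = 0.971).

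The other Hox clusters were set beside HoxB by the paralogue group, the number that genes of the same position share across clusters. The shares of all tested that rose and fell were 11.8% and 9.95%. In HoxA 3 of 10 tested genes rose and 5 fell, and in HoxC 2 of 8 rose and 3 fell. In HoxD 6 of 6 rose and 0 fell. Of these 6, Hoxd10, Hoxd11 and Hoxd13 were well above background on 0 of 4 controls, Hoxd9 on 1 and Hoxd4 on 2. All of these entered the test only through the EED cKO arrays, and Hoxd8 alone passed the filter in both genotypes. The other 3 of the 9 HoxD genes were not tested, so the filter itself favoured rises there. Among the 3 HoxA genes that rose, Hoxa10 was well above background on 1 of 4 controls and Hoxa11 on 0. Both entered the test only through the EED cKO arrays. The paralogue of Hoxb2 behaved much like it. Hoxa2, the other group 2 gene, averaged 0.82 ± 0.11 (SD, n = 4) in the EED cKO group and, in the control group, 2.15 ± 0.08 (SD, n = 4), a log2 change of -1.33 (limma adjusted p = 1.94e-05).

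Among the paralogues of Hoxb13, Hoxd13, a gene of the digits, was well above background on 4 of 4 EED cKO arrays and 0 of 4 controls, and its level was at least 1.30-fold higher (limma adjusted p = 0.00216). Hoxc13, a regulator of hair keratins, was detected on all 8 arrays and had a change of 0.21 (SE 0.10, limma adjusted p = 0.166). Hoxa13 was well above background on 0 of the 8 arrays. Whether these paralogues differed from Hoxb13 in their change was not tested.

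**Figure D4:**
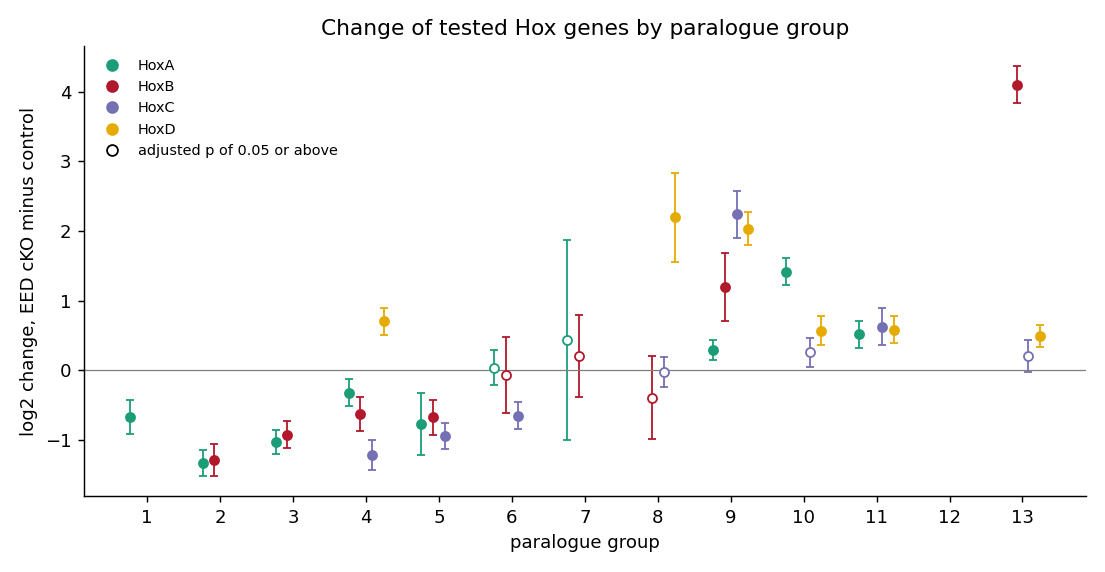
Log2 change, EED cKO minus control (vertical axis), of the tested genes of the 4 Hox clusters by paralogue group (horizontal axis). Points are limma estimates from 4 arrays per genotype, bars are 95% intervals, colours are clusters and open points had an adjusted p of 0.05 or above. Groups 1 to 6 hold the HoxA, HoxB and HoxC genes that fell, Hoxd4 in group 4 rose, and the points of Hoxb13, Hoxa11, Hoxd10, Hoxd11 and Hoxd13 rest on controls at background.

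Hox proteins bind DNA together with TALE homeodomain partners of the Pbx, Meis and Pknox families. Of 9 such genes, all tested, 3 rose and 1 fell, beside 11.8% and 9.95% of all genes and other targets tested. Among them, Meis1 rose by 0.58 (limma adjusted p = 0.0407) and Meis3 by 0.28 (limma adjusted p = 0.0212), and Pbx3 fell by 0.36 on the log2 scale (limma adjusted p = 0.0209). None of the 4 changed 2-fold.

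Of 18 listed genes that act upstream of Hox genes, 17 had a probe and 12 were tested. Of these 12, 3 rose and 5 fell, beside 11.8% and 9.95% of all tested. Egr2, the hindbrain zinc finger factor that switches on Hoxb2 there, rose by 1.46 (SE 0.20, limma adjusted p = 0.00166), with log2 ratios of 1.00, 1.55, 1.06 and 1.25 in EED cKO and -0.80, 0.14, 0.13 and -0.47 in control. Egr2 and Hoxb2 thus moved in opposite directions in this tissue.

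The list holds 6 genes of retinoic acid signaling, to which genes of the Hoxb1 end respond in the embryo, and they did not move one way. Cyp26b1, an enzyme that degrades retinoic acid, rose by 1.41 (SE 0.23, limma adjusted p = 0.00364). The receptor genes Rara and Rarg fell by 0.52 (limma adjusted p = 0.00547) and 0.45 (limma adjusted p = 0.0455) on the log2 scale. Aldh1a2, an enzyme that makes retinoic acid, rose by 0.33 (limma adjusted p = 0.00978). It was well above background on 2 of 4 controls and entered the test only through the EED cKO arrays. Rarb had a change of 0.032 (limma adjusted p = 0.892) and Cyp26a1 was well above background on no array. Aldh1a2, Rarb and Cyp26a1 are named outside the rule for named genes, after their values were seen. These lists were chosen with results of these arrays known and are no independent support for one another.

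The genes whose log2 ratios followed Hoxb13 most closely over the 8 arrays were Cdkn2a (Pearson r = 0.998), Ddx43 (0.997), Sp8 (0.996), Selenov (0.996) and Cers4 (0.996). Cdkn2a encodes inhibitors of the cell cycle and rose by 3.67, and Sp8, a zinc finger factor of the limb bud, rose by 3.04. Ddx43, an RNA helicase, rose by 1.17, the selenoprotein gene Selenov by 0.46 and the ceramide synthase gene Cers4 by 1.71. Background flags of these genes are not given here, and a change whose controls lie at background does not measure size. Those that followed Hoxb2 most closely were Mbnl1 (0.996), Fmr1 (0.990), Cdk13 (0.982), Smc4 (0.981) and Znrf1 (0.981), with log2 changes of -0.57, -0.43, -0.44, -0.48 and -0.46. Mbnl1 and Fmr1 encode RNA-binding proteins, Cdk13 a kinase of transcription, Smc4 a condensin subunit and Znrf1 a ubiquitin ligase. All 10 correlations run over 2 genotypes that differ in each of these genes, so they describe the separation of the groups more than a shared course within them.

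The labelled tissue was checked against marker genes. Beside the marker counts here and below, 11.8% of all tested rose and 9.95% fell. All 6 keratinocyte markers were well above background on every array and 0 of them passed the test, with log2 ratios of 5.51 in EED cKO and 5.41 in control for Lor and of -0.69 and -0.73 for Trp63. Merkel cell markers rose, 6 of 6, Krt20 among them by 1.12. Sox2 was well above background on 0 of 4 controls and was at least 1.24-fold higher. For Isl1, as for Atoh1, only 2 of the 4 control arrays met this limit, too few for the filter. Sox2, Isl1 and Atoh1 thus entered the test only through the EED cKO arrays, so the filter favoured rises there. The log2 of the summed signal of the 6 was 10.9 to 11.2 in EED cKO and 10.3 to 10.6 in control. Of the dermal fibroblast markers 1 of 7 rose (Lum, 0.50), with a summed log2 signal of 14.7 to 14.8 in EED cKO and 14.7 to 15.2 in control. Both tested endothelial markers of 5 rose (Pecam1 by 0.89 and Kdr by 0.62), with a summed log2 signal of 12.2 to 12.6 against 11.4 to 12.0 and with Cdh5 and Tek well above background on no array.

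Immune markers rose in 2 of 5 tested (Cd3e and Cd74), with a summed log2 signal of 11.4 to 11.9 in EED cKO and 11.0 to 11.6 in control. Adipocyte markers rose in 1 of 2 tested (Fabp4, 1.17), at 8.57 to 9.08 against 8.11 to 8.65, with Adipoq well above background on no array. Schwann cell and neuron markers fell in 1 of 5 (Sox10, -0.50). None of 5 melanocyte, 2 tested skeletal muscle and 2 tested erythroid markers passed. The part of these other cell types in the HoxB values was not tested.

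**Figure D5:**
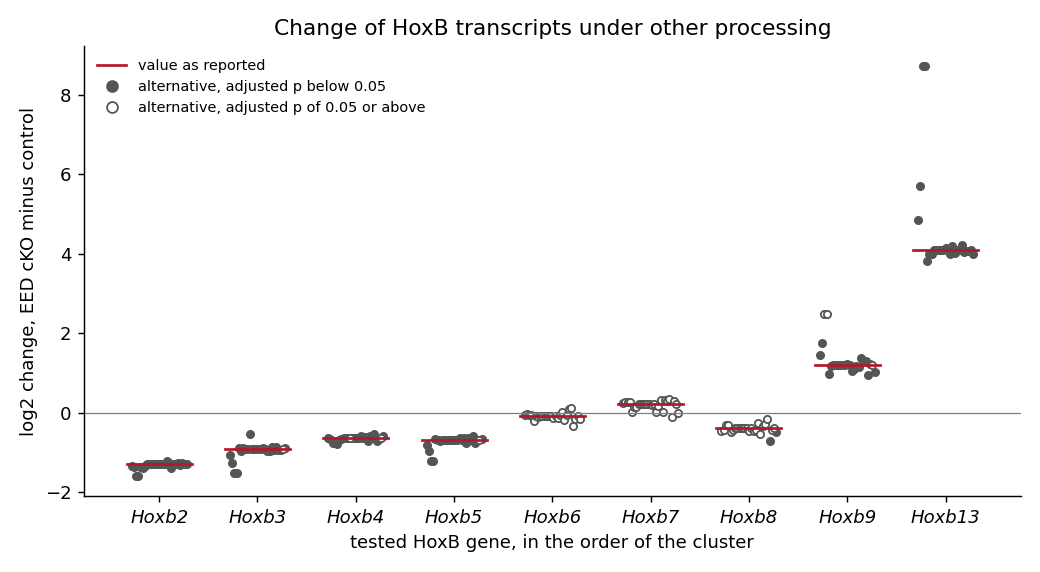
Log2 change, EED cKO minus control (vertical axis), of the 9 tested HoxB genes (horizontal axis) as reported (red line) and under each alternative in processing, fit or arrays (points, in a fixed order from left to right). Open points had an adjusted p of 0.05 or above. Hoxb2 to Hoxb5 stayed below 0 and Hoxb9 and Hoxb13 above 0 throughout, Hoxb6 and Hoxb7 crossed 0, and Hoxb13, with controls at background, ranged from 3.82 to 8.71.

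Across the alternatives tried, the direction of Hoxb2, Hoxb3, Hoxb4, Hoxb5, Hoxb8, Hoxb9 and Hoxb13 did not turn. Hoxb2 and Hoxb13 passed the test under every alternative in which they were tested. Hoxb3 and Hoxb5 missed it under 1 alternative, the methods' t-test after Benjamini-Hochberg adjustment, and Hoxb4 under that one and without the dye term. The second Hoxb3 probe did not pass when tested on its own. Hoxb9 missed it under that alternative, under the Feature Extraction log ratio and under the deposited table.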

How the data were processed

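RNA of 4 EED cKO and 4 control epidermis samples was measured on 8 two-color Agilent arrays on 1 slide. The authors deposited for each array the spot and background intensity of both channels without normalization, background flags and the log10 of the Cy5 to Cy3 ratio, all made with Agilent Feature Extraction 12.0.1.1, and a table of log2 ratios. Deposited log2 values of single-spot probes lay within 7.33e-06 of log2(sample/reference) taken from the software's processed signals, with no centring and medians of 0.033 to 0.14. Median spot signals were corrected by normexp (offset 50), normalized by loess with control spots at weight 0, cleared of spots with an outlier flag, turned to sample over reference and averaged over the spots of a probe.

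Probes were named through RefSeq (28026 of 29796 accessions matched), and the probe with the highest mean signal stood for a gene. Genotypes were compared with limma 3.58.1 in R 4.3.3 (genotype plus dye, Benjamini-Hochberg, threshold 0.05), and 19 missing values were left missing. The fit was tested on simulated data. The number of arrays limits the precision, and the limma p-values set the difference between genotypes against the spread among these samples that genotype and dye leave. The members and lists were chosen with earlier results of these data known. The genes named are all members, Eed, paralogues of groups 2 and 13, up to 5 changed genes per list (some are not reported here), the 5 genes most like Hoxb13 and Hoxb2, and the highest or lowest markers, and any others were chosen after their values were seen. Same-numbered samples deviated together (correlations of 0.33 to 0.68 over genes), and the number also marks the dye. After removal of the dye the correlations were -0.14 to 0.23. The alternatives tried were no background correction, an offset of 10, the Feature Extraction log ratio, the deposited table, median centring, quantile normalization, the sample channel alone, other filters, other treatment of probes, no dye term, a replicate block (fixed or random), an intensity trend, weights per array, the methods' t-test (also with a 2-fold limit), a Y-linked covariate, and each array left out.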

Additional observations from a re-analysis of the deposited data

How the results depend on the processing

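The count of 2 members higher and 4 lower held under no background correction, another offset, median centring, quantile normalization, the sample channel alone, no filter, the mean over probes, array weights, an intensity trend and the Y-linked covariate. Without the dye term 3 were lower, since Hoxb4 missed the threshold. It fell to 1 higher under the Feature Extraction log ratio and under the deposited log2 table, and to 0 higher when all 8 arrays had to be well above background, since Hoxb9 and Hoxb13 then left the test. The methods' t-test after Benjamini-Hochberg adjustment gave 1 higher and 1 lower. A limit of 2-fold left 1 lower with limma and 1 lower with the methods' t-test at an unadjusted p below 0.05. With the replicate number as a block in place of the dye, 2 were higher and 4 lower, with adjusted p of 0.000311 for Hoxb2 and 6.75e-06 for Hoxb13, and no call changed. With each array left out in turn, 2 were higher and 4 to 5 lower. Hoxb6 ranged from -0.34 to 0.13 and Hoxb7 from -0.11 to 0.36, both turning sign, and Hoxb8 ranged from -0.70 to -0.16. Without control replicates 2 and 3, Hoxb7 was -0.0051. The cause was not tested. The signal over background limits Hoxb13 in control to a bound and leaves Hoxb1 without a value. Over all genes and other targets tested, where the reported fit called 2727 higher and 2303 lower, the calls were 1341 and 1016 without the dye term, 1014 and 1540 with median centring, 1749 and 1050 with the Y-linked covariate, 593 and 320 with the methods' t-test after adjustment, 1731 and 1609 without EED cKO replicate 3, 1707 and 1244 without EED cKO replicate 4, 1585 and 1139 without control replicate 2, and 1633 and 960 without control replicates 2 and 3.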
